A study of Homo sapiens with 24 samples.

Results

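Mitochondria keep their own set of chaperones, which fold proteins in the matrix, and of ATP-dependent proteases, which remove proteins that do not fold or assemble. This account follows 10 nuclear genes of that set on microarrays: the chaperones HSPD1, HSPE1, HSPA9, DNAJA3 and TRAP1, and the proteases or protease subunits LONP1, CLPP, CLPX, YME1L1 and AFG3L2. A probe set was taken as a member if the platform annotation gave it 1 gene symbol and that symbol was one of the 10. This rule found 41 of 54675 probe sets, or of 41091 with 1 symbol, and used no measured value. The 10 genes themselves were chosen with earlier results of these data known. Of the 41, 21 were bright enough to be tested in HEK293 cells and 24 in 143B cells, while 17 were tested in neither. YME1L1 held 20 of the 41 and 15 of these 17, and only 1 of its 20 probe sets bore a RefSeq transcript accession. Values given for a gene come from the probe set that was brightest over the 24 arrays, unless another is named. In 143B cells alone, 200692_s_at of HSPA9 and 201352_at of YME1L1 were brighter than the probe sets so chosen.

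All 24 arrays measured total RNA of cultured human cells, 3 cultures per group. The first model was HEK293, an embryonic kidney line, which the methods give as HEK293T, carrying a doxycycline-inducible dominant negative mitochondrial DNA polymerase gamma (DN-POLG). DN-POLG cells were sampled uninduced (day 0) and after doxycycline for 3, 6 or 9 days, over which mitochondrial DNA (mtDNA) is lost. AOX/NDI1 cells carry the same transgene and also express AOX, an alternative oxidase, and NDI1, a single-subunit NADH dehydrogenase, which keep NADH oxidised, and they were sampled at days 9 and 0. The second model was 143B, an osteosarcoma line, as the rho0 derivative, chronically depleted of mtDNA with ethidium bromide, and as the parental rho+ line. All cells grew in high glucose with uridine and pyruvate. Uninduced cells received no doxycycline, so the drug and the transgene cannot be told apart. Flasks were pooled for days 6 and 9 but not day 0, and rho0 and rho+ are 1 line each. All arrays were scaled to a common level, so the signals are relative, and the amount of RNA per cell was not measured.

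Matrix proteins arrive unfolded through the import pores. The Hsp70 HSPA9 (mortalin) pulls them in and folds them with its J-protein DNAJA3, and the chaperonin of HSPD1 (Hsp60) with its lid HSPE1 (Hsp10) encloses them for folding, while TRAP1 is the Hsp90 of the matrix. LONP1 and the CLPX–CLPP pair degrade proteins in the matrix, and YME1L1 and AFG3L2 are AAA proteases of the inner membrane that face the intermembrane space and the matrix. In the mitochondrial unfolded protein response, best known from worms and from mammalian cells with aggregated matrix proteins, nuclear genes of this kind are transcribed more, and in mammals the transcription factors DDIT3 (CHOP), CEBPB, ATF4, ATF5 and HSF1 have been tied to it.

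The start regions of the genes are shown because these factors act on DNA letters near the start. RefSeq windows on GRCh38.p14, 250 bases before to 50 after a start, matched 8 of the 10 genes with 10 windows; CLPP and YME1L1 are named only. Both strands were searched for TGCAAT (core of CHOP with C/EBP), TGATGNAA (core of the C/EBP-ATF element), GAANNTTC and TTCNNGAA (heat shock element pairs, which can overlap each other), CACGTG (E-box) and the nuclear respiratory factor 1 motif, GCGCA and GCGC with 1 base between them. Capitals mark the matches in the following 5 windows, each written 5′ to 3′ on the strand of its gene.
HSPE1, chr2:197500129-197500428, plus strand: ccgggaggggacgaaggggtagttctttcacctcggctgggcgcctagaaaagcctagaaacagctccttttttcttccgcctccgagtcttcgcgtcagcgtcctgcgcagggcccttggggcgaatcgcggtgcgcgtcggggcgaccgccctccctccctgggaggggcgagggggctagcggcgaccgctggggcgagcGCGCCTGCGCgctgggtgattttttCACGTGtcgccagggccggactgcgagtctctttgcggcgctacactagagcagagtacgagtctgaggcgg
HSPD1, chr2:197499791-197500090, minus strand: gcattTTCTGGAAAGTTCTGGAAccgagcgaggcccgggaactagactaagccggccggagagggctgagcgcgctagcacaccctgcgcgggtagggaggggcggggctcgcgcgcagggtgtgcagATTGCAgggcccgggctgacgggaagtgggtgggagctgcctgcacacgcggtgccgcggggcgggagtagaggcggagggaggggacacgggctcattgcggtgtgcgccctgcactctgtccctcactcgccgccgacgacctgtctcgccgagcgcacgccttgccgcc
HSPA9, chr5:138575352-138575651, minus strand: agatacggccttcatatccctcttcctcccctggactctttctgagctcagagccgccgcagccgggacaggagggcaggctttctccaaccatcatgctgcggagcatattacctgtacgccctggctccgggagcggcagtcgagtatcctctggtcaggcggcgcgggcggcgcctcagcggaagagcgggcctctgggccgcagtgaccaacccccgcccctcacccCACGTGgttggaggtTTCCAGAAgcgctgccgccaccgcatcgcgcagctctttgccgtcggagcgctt
LONP1, chr19:5720097-5720396, minus strand: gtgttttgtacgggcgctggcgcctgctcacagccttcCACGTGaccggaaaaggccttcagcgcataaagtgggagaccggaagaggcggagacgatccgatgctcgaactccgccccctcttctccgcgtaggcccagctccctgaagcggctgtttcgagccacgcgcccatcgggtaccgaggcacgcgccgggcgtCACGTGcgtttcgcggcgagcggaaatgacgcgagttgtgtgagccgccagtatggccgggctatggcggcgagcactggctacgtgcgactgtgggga
AFG3L2, chr18:12377178-12377477, minus strand: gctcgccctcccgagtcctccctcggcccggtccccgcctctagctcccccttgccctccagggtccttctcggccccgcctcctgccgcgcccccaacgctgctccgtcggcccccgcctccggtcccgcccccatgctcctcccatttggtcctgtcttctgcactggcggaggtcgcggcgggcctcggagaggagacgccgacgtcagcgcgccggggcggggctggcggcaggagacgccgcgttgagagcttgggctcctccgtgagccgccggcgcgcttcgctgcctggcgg

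HSPE1 and HSPD1 lie head to head. The start of HSPE1 is 105 bases from that of the other HSPD1 window, chr2:197500225-197500524, and these 2 windows share 204 bases, among them an E-box and a GCGCCTGCGC that reads GCGCAGGCGC on the HSPD1 strand. The HSPD1 window printed above held ATTGCA 122 bases before its start and 3 overlapping heat shock pairs 235 to 245 bases before it. HSPA9 held a TTCCAGAA that begins 4 bases before its start and runs across it, and an E-box that begins 19 bases before it. LONP1 held 2 E-boxes in the window printed above, and AFG3L2 and TRAP1 held none of the motifs. Distances are counted from the first letter of a match. Over all 35116 windows, TGCAAT was found in 8.21%, TGATGNAA in 3.62%, GAANNTTC in 6.77%, TTCNNGAA in 7.74%, CACGTG in 7.26% and the nuclear respiratory factor 1 motif in 5.78%. In the 10 windows of these genes the motifs were found in 1, 0, 1, 2, 4 and 5 windows, in the same order. The E-box and the nuclear respiratory factor 1 match that HSPE1 and HSPD1 share are counted in both windows, so these windows are not independent. A match is a description of the letters, and binding was not measured.

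The labels could be checked on the arrays. A POLG probe set, 217635_s_at, read 2834 to 4739 at day 9 of DN-POLG cells, against 307, 421 and 280.1 at day 0, but 4035, 2468 and 447 in the 3 AOX/NDI1 cultures at day 9, against 274, 197 and 266 at day 0, so replicate 3 of AOX/NDI1 day 9 lay far below its fellow cultures. Of 7 mtDNA genes tested, 3 were lower at day 9 in DN-POLG cells, 3 in AOX/NDI1 cells and all 7 in rho0 cells. Of 6 HEK293 markers on the array, 4 or 5 lay above the signal filter in each HEK293 group and 1 in each 143B group, while of 10 mesenchymal markers of 143B 6 to 8 did so in HEK293 groups and 8 in 143B groups. Some of these markers moved with the comparisons: of the HEK293 markers tested 1 of 5 was lower at day 9 of DN-POLG cells and 2 of 5 in AOX/NDI1 cells, and of the mesenchymal markers 1 of 7 was higher in each of these and 3 of 8 in rho0 cells. These were EYA1 in both models and SIM1 in AOX/NDI1 cells, VIM in both models, and S100A4, SPARC and CD44 in rho0 cells. A gene counts here if any of its probe sets was called. For VIM this was 1555938_x_at alone, with a mean of 1222 at day 9 and 164 at day 0 of DN-POLG cells. Their part in the results was not tested. RNA quality was uneven. The ratio of 3′ to 5′ ACTB signal, which is near 1 for intact RNA, was 8.92 in culture 1 of DN-POLG day 6 and 1.05 to 1.81 in the other 17 HEK293 arrays, and it was 5.53 to 8.12 in rho0 against 10.4 to 17.1 in rho+ cultures. The array of culture 1 at day 6 is part of every day 6 value below, and its part in them was not tested beyond leaving it out.

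Across the 9 days of mtDNA loss, few differences from day 0 were detected in the transcripts of these 10 genes. Against day 0 of DN-POLG cells, limma called 0 of the 21 tested member probe sets at day 3 (background: 0% of 23132 tested probe sets), 0 at day 6 (background 1.37%, of which 0.324% higher and 1.05% lower) and 1 at day 9 (background 8.38%, of which 2.31% higher and 6.07% lower). The member called at day 9 was a dim HSPD1 probe set. At an unadjusted p of at most 0.05 the counts were 1, 1 and 2, beside 2.72%, 16.1% and 21.3% of all tested probe sets. In AOX/NDI1 cells at day 9 against day 0, 0 of 21 were called (background 11.8%, of which 2.46% higher and 9.33% lower) and 2 at the unadjusted threshold, beside 26.3% of all. In 143B cells, 2 of 24 member probe sets were called, both higher in rho0 than in rho+ (background 7.65%, of which 2.24% higher and 5.41% lower), 1 of HSPA9 and 1 of AFG3L2. The median log2 fold change of the 10 brightest member probe sets was -0.03 at day 3, 0.18 at day 6 and 0.12 at day 9 of DN-POLG cells, 0.15 at day 9 of AOX/NDI1 cells and 0.55 in rho0 cells, beside medians over all tested probe sets of 0.05, -0.03, 0.01, -0.04 and -0.05.

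**Figure D1:**
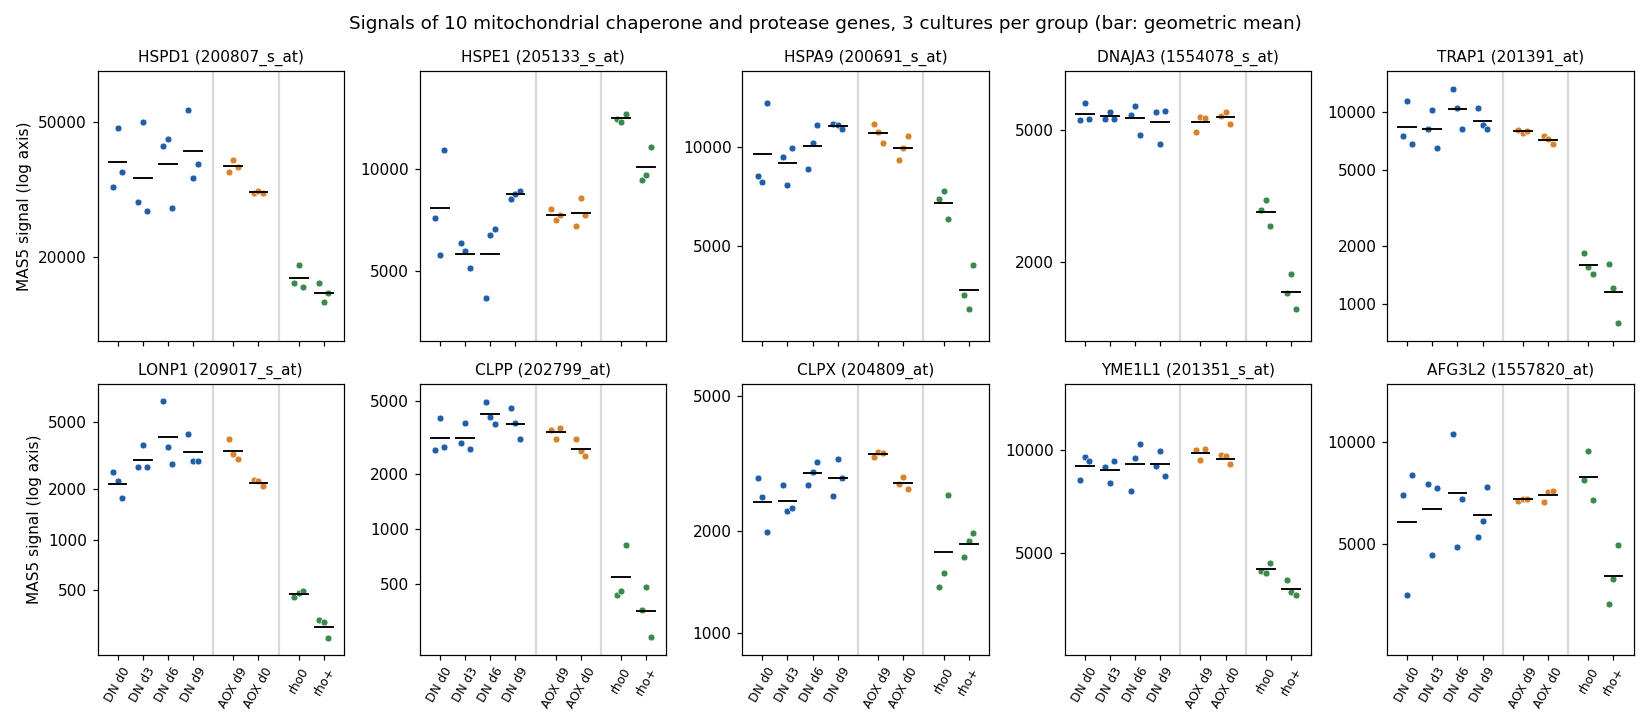
Deposited MAS5 signal (log axis, in signal units) of the brightest probe set of each gene in every culture, 3 points per group with the geometric mean as a bar, for DN-POLG (DN) days 0 to 9, AOX/NDI1 (AOX) days 9 and 0, and 143B rho0 and rho+. LONP1 lies higher at days 3, 6 and 9 than at day 0 in every culture. HSPE1, HSPA9, DNAJA3, LONP1, YME1L1 and AFG3L2 lie higher in rho0 than in rho+ in every culture, and most genes are dimmer in 143B than in HEK293 cells.

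HSPD1, the chaperonin subunit, was the brightest of the 10 genes. In DN-POLG cells its signal was 32249, 48153 and 35743 at day 0, 29007, 50009 and 27408 at day 3, 42548, 44543 and 28025 at day 6 and 54365, 34281 and 37627 at day 9. Every later day overlapped day 0. The log2 fold change at day 9 was 0.11 (SE 0.26, 95% interval -0.44 to 0.67, limma adjusted p = 0.871). AOX/NDI1 cultures read 35722, 38559 and 36897 at day 9, against 30993, 31256 and 30869 at day 0. These groups did not overlap, but with the spread shared by all HEK293 groups the change of 0.26 (SE 0.26) did not pass (adjusted p = 0.583).

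A second bright HSPD1 probe set, 200806_s_at, moved by 0.06 at day 9 of DN-POLG cells and by 0.09 in AOX/NDI1 cells, and passed in neither. The dim 241716_at, which bears no RefSeq accession, read 159.7, 103 and 168 at day 0, 178, 55.4 and 116 at day 3, 454, 139 and 184 at day 6 and 293, 681 and 990.4 at day 9 of DN-POLG cells. All 3 day 9 cultures lay above all 3 day 0 cultures, by a log2 fold change of 2.06 (SE 0.57, 95% interval 0.85 to 3.26, limma adjusted p = 0.0338), and it was the only member to pass the F test for a change at any day (F = 7.34, adjusted p = 0.0352, 1 of 21 beside a background of 9.02%). The call at day 9 was lost without any 1 of 5 of the 6 cultures (adjusted p = 0.0569 to 0.156), that is without DN-POLG day 0 replicate 1, 2 or 3 or day 9 replicate 2 or 3, and kept without day 9 replicate 1 (0.0175). In AOX/NDI1 cells the same probe set read 405, 1009.6 and 245 at day 9, against 196, 222 and 174 at day 0, without overlap (1.24, SE 0.57, adjusted p = 0.173). It was far dimmer than the 2 bright HSPD1 probe sets, and which HSPD1 transcript it reads was not tested. With the tested HSPD1 probe sets averaged, 241716_at included, the day 9 change in DN-POLG cells was 0.69 (limma adjusted p = 0.0454).

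In 143B cells HSPD1 read 16839.8, 19024 and 16321 in rho0 cultures, against 16796, 14756 and 15745 in rho+ cultures, which overlapped (0.14, SE 0.22, adjusted p = 0.720). On the dim 243372_at, rho0 cultures read 716, 692 and 491, against 412, 165 and 165 in rho+ cultures, a difference of 1.48 (SE 0.39) that lay just outside the threshold (adjusted p = 0.0573). RefSeq lists 22 pseudogenes named after HSPD1, 28 after HSPE1, 2 after HSPA9 and 1 each after YME1L1 and AFG3L2, so signals of these genes could hold some RNA of copies, and this was not tested.

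HSPE1, the lid of the chaperonin, shares its start region with HSPD1, and over the 18 HEK293 arrays the log2 signals of the pair had a Pearson's r of -0.09, given as a description. Its single probe set read 7167, 5585 and 11331 at day 0, 6048, 5742 and 5103 at day 3, 4165, 6405 and 6639 at day 6 and 8175, 8452 and 8613 at day 9 of DN-POLG cells. Days 3 and 6 had lower geometric means than day 0, and the day 9 cultures lay close together inside the wide range of day 0. None of the days passed against day 0 by limma. At day 6 the log2 fold change was -0.45 (95% interval -0.96 to 0.05, adjusted p = 0.370) and at day 9 it was 0.13. AOX/NDI1 cells read 7603, 7089 and 7292 at day 9 and 6808, 8190.0 and 7337 at day 0, which overlapped. In rho0 cells HSPE1 read 14044, 13776 and 14533, against 9245, 9610.2 and 11593 in rho+ cells. The 2 lines did not overlap, and the difference of 0.48 (SE 0.23, 95% interval -0.03 to 1.00) did not pass (adjusted p = 0.210).

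HSPA9, the motor of import and folding, had the clearest rise of the chaperones in rho0 cells. On 200690_at rho0 cultures read 4315, 4466 and 3308, against 1659, 1252 and 2314 in rho+ cultures. Each rho0 culture lay above each rho+ culture, and the log2 fold change of 1.24 (SE 0.29, 95% interval 0.57 to 1.92) passed (limma adjusted p = 0.0421). The brightest probe set, 200691_s_at, read 6949, 7335 and 6037 in rho0 and 3531, 3206 and 4358 in rho+ cultures, again without overlap (0.88, SE 0.24, adjusted p = 0.0611). Of the others, 200692_s_at differed by 0.83 (adjusted p = 0.0585), and 232200_at, close to the filter, by 0.14. The call of 200690_at was lost without any 1 of 5 of the 6 arrays (adjusted p = 0.0583 to 0.153), namely rho0 replicate 1 or 2 or rho+ replicate 1, 2 or 3, and kept without rho0 replicate 3 (0.0155).

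In HEK293 cells HSPA9 read 8131, 7819.6 and 13619.7 at day 0, 9289, 7666 and 9929.8 at day 3, 8575, 10253 and 11642 at day 6 and 11702, 11615 and 11350.1 at day 9 of DN-POLG induction. The highest single culture was at day 0, and day 9 differed by 0.28 (95% interval -0.18 to 0.73, limma adjusted p = 0.516). AOX/NDI1 cultures read 11698, 11117 and 10268 at day 9, against 9146, 9920.0 and 10773 at day 0, with overlap. On 200692_s_at the AOX/NDI1 groups were apart, at 10320.3, 8423 and 7839.5 at day 9 and 6495, 6257 and 6856 at day 0, but did not pass (0.43, adjusted p = 0.303).

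DNAJA3, the J-protein that works with HSPA9, had small fitted changes in HEK293 cells. DN-POLG cultures read 5347, 6036 and 5406 at day 0, 5414, 5676 and 5385 at day 3, 5559, 5919 and 4825 at day 6 and 5678, 4531 and 5702 at day 9. The 95% interval of its day 9 change was -0.43 to 0.26 on the log2 scale, the narrowest of the 10 genes. In 143B cells the rho0 cultures read 2868, 3065 and 2557, against 1611, 1838 and 1439.7 in rho+ cultures. Both of its probe sets separated the lines, with log2 fold changes of 0.80 (SE 0.23, adjusted p = 0.0721) and 0.80 (SE 0.26, adjusted p = 0.0952), neither past the threshold.

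TRAP1, the matrix Hsp90, read 7542, 11407 and 6796 at day 0, 8152, 10239.9 and 6482 at day 3, 13137, 10569.9 and 8165 at day 6 and 10455, 8590.2 and 8163 at day 9 of DN-POLG cells. All days overlapped, and the day 9 change was 0.11 (95% interval -0.39 to 0.61, limma adjusted p = 0.858). AOX/NDI1 cultures were apart by a small step, at 8069, 7812 and 8013 at day 9 and 7539.9, 7253 and 6800.0 at day 0 (0.15, adjusted p = 0.741). In 143B cells TRAP1 read 1846, 1568 and 1445 in rho0 and 1619.6, 1212 and 805 in rho+ cultures, which overlapped (0.47, SE 0.30, adjusted p = 0.355).

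**Figure D2:**
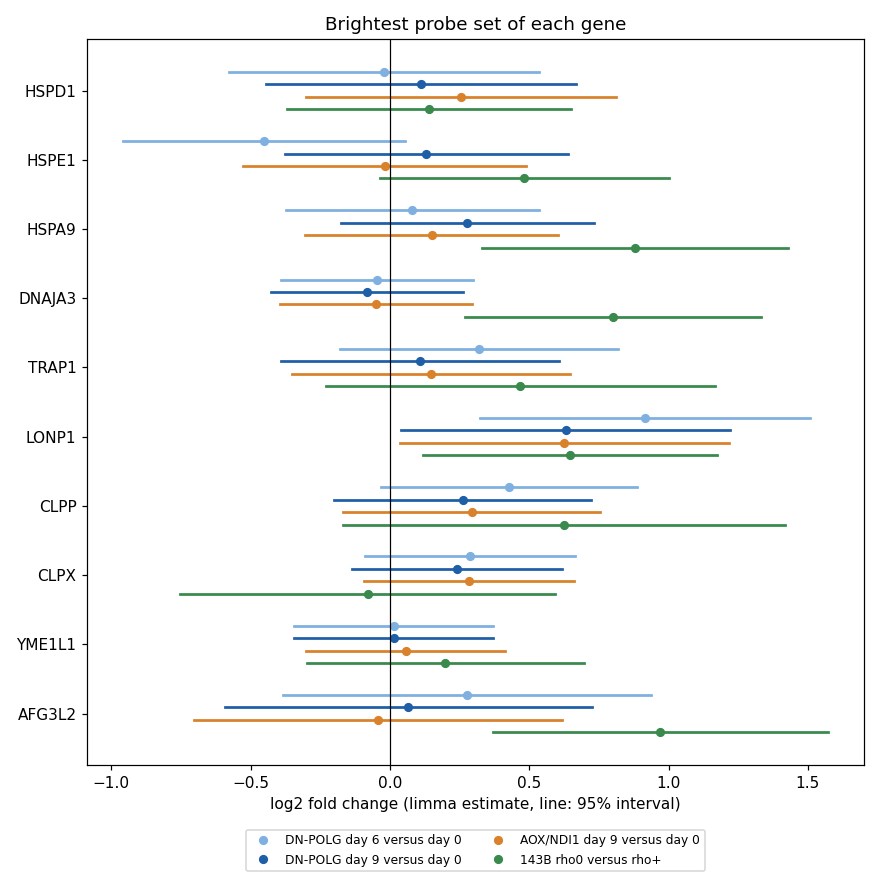
Log2 fold change of the brightest probe set of each gene with its 95% interval (limma), for DN-POLG day 6 and day 9 over day 0, AOX/NDI1 day 9 over day 0, and 143B rho0 over rho+. LONP1 is the gene whose interval stays above 0 in all 4 comparisons, and none of these 40 values passed after adjustment over all tested probe sets.

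LONP1, the main protease of the matrix, was the member whose cultures lay apart and higher in all 5 comparisons of depleted with undepleted cells. The DN-POLG comparisons among these share the day 0 cultures, so the 5 are not independent. How many of all tested probe sets were apart and higher in all 5 was not counted. Its single probe set read 2526, 2234 and 1770.2 at day 0, 2694, 3645 and 2693 at day 3, 6709, 3546 and 2821 at day 6 and 4247, 2954 and 2954 at day 9 of DN-POLG cells. Each culture of days 3, 6 and 9 lay above each culture of day 0. The log2 fold changes were 0.47 (SE 0.28) at day 3, 0.92 (95% interval 0.33 to 1.51, limma adjusted p = 0.115) at day 6 and 0.63 (95% interval 0.04 to 1.22, adjusted p = 0.200) at day 9, so none passed. The highest value, at day 6, came from culture 1, the array with the ACTB ratio of 8.92, and without it the day 6 value was 0.55 (adjusted p = 0.284), below that of day 9. Over all members, 2 of 21 probe sets were apart and higher at day 3 (background 3.85%), 2 at day 6 (4.39%) and 2 at day 9 (10.1%), and 0 were apart and lower (backgrounds 1.73%, 7.84% and 13.8%). Beside LONP1 these were CLPX 223507_at at day 3, YME1L1 216304_x_at at day 6 and HSPD1 241716_at at day 9.

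AOX/NDI1 cells read, for LONP1, 3961, 3230.5 and 3000.3 at day 9, against 2249, 2238 and 2076 at day 0, without overlap. The log2 fold change was 0.63 (SE 0.28, 95% interval 0.03 to 1.22, limma adjusted p = 0.163). It passed with array weights (adjusted p = 9.49e-04), with these 6 arrays alone (0.0176) and without DN-POLG day 6 replicate 1 in the shared model (0.0478), and in none of the other settings tried. The response of AOX/NDI1 cells minus that of DN-POLG cells was -0.0046 (95% interval -0.84 to 0.83), which leaves a difference between the models of either sign within these bounds. In 143B cells LONP1 was dim, at 454, 479 and 498 in rho0 cultures, against 334, 326 and 259.8 in rho+ cultures. The lines did not overlap (0.65, SE 0.23, 95% interval 0.12 to 1.17), and the adjusted p was 0.118.

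CLPP, the proteolytic barrel, read 2696, 4048 and 2798 at day 0, 2928, 3797 and 2731 at day 3, 4913, 4072 and 3720.4 at day 6 and 4541, 3761 and 3076 at day 9 of DN-POLG cells, with overlap at every day (0.26 at day 9, 95% interval -0.20 to 0.72). In AOX/NDI1 cells it read 3449, 3085 and 3553 at day 9, against 3099, 2654 and 2496 at day 0 (0.29, limma adjusted p = 0.425). The 143B lines overlapped, at 441, 461 and 824 in rho0 and 362, 485 and 259.7 in rho+ cultures (0.63, adjusted p = 0.280). A single rho0 culture, replicate 3, stood above the others.

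CLPX, the unfoldase that feeds CLPP, had 2 probe sets that pointed in opposite directions in AOX/NDI1 cells. On 204809_at the cultures read 3301, 3418 and 3397 at day 9, against 2756, 2885 and 2662 at day 0 (0.29, limma adjusted p = 0.334). On 223507_at they read 915, 837 and 858 at day 9, against 1041, 1089.9 and 1098 at day 0 (-0.31, adjusted p = 0.245). Both pairs of groups were apart, so the array gives no single direction for this gene, and neither passed. In DN-POLG cells 204809_at read 2869, 2521 and 1982 at day 0, 2726, 2287 and 2345 at day 3, 2731, 2991 and 3196 at day 6 and 2539, 3268 and 2859 at day 9 (0.24 at day 9, 95% interval -0.13 to 0.62). In 143B cells it read 1369.7, 1500.4 and 2553 in rho0 and 1677, 1866 and 1978 in rho+ cultures, with overlap (-0.08, SE 0.29).

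YME1L1, the AAA protease that faces the intermembrane space, gave 2 readings in HEK293 cells. Its brightest probe set read 8200.0, 9538 and 9334 at day 0, 8939, 7995 and 9324 at day 3, 7578, 9469 and 10458 at day 6 and 8973, 9959 and 8401 at day 9 of DN-POLG cells (0.01 at day 9, 95% interval -0.34 to 0.37). AOX/NDI1 cultures read 10049, 9358 and 10112 at day 9 and 9684, 9603 and 9098 at day 0, with overlap. On 201352_at, which bears the gene's RefSeq accession, they read 7061, 6725 and 7065 at day 9, against 7823, 8382 and 8409 at day 0, apart and on the lower side (-0.24, SE 0.19, limma adjusted p = 0.459). In 143B cells the lines were narrowly apart, at 4429, 4358 and 4654 in rho0 and 4139.6, 3827 and 3749 in rho+ cultures (0.20, limma adjusted p = 0.589). Between the lines 201352_at overlapped (0.27), and the dim 211902_x_at and 232216_at gave -1.04 (adjusted p = 0.132) and -0.97 (adjusted p = 0.167), opposite to the bright ones. The 15 YME1L1 probe sets tested in neither line had signals of 0.310 to 77.5 over all arrays. Whether the dim probe sets annotated to YME1L1 read this gene was not tested.

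AFG3L2, a subunit of the AAA protease that faces the matrix, had the largest called difference of the 10 genes in rho0 cells. On 202486_at, which bears its RefSeq accession, rho0 cultures read 1561, 1905 and 1468, against 498, 749.6 and 639 in rho+ cultures. The lines were far apart, with a log2 fold change of 1.40 (SE 0.26, 95% interval 0.81 to 1.99, limma adjusted p = 0.0201). Without any 1 of 5 of the 6 arrays, rho0 replicate 1 or 2 or rho+ replicate 1, 2 or 3, the adjusted p was 0.0663 to 0.0820, and without rho0 replicate 3 it was 0.00791. The brightest probe set, 1557820_at, read 7717, 9412 and 6716 in rho0 and 3319, 3939.7 and 4951 in rho+ cultures, also apart (0.97, SE 0.26, adjusted p = 0.0599), and the other, 232919_at, gave 0.50 (adjusted p = 0.282). In HEK293 cells the groups overlapped. DN-POLG cultures read 6950.3, 3549.9 and 7962 at day 0, 7524, 4640.1 and 7304 at day 3, 10512, 4896 and 6791 at day 6 and 5226, 5851 and 7368 at day 9 (0.07, 95% interval -0.59 to 0.73), and AOX/NDI1 cultures 6713, 6789 and 6787 at day 9 and 6631, 7116 and 7153 at day 0.

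**Figure D3:**
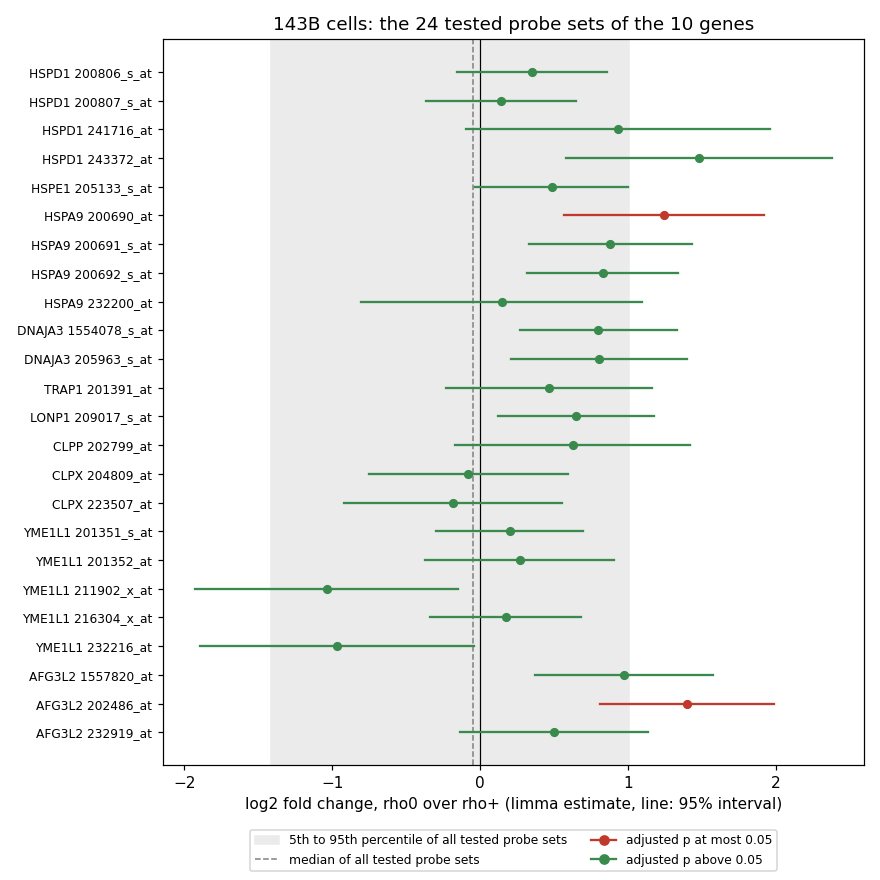
Log2 fold change of rho0 over rho+ 143B cells with its 95% interval (limma) for the 24 tested probe sets of the 10 genes, with the median of all 22786 tested probe sets as a dashed line and their 5th to 95th percentile shaded. The called probe sets of HSPA9 (1.24) and AFG3L2 (1.40) are drawn in red, and most of the other probe sets lie right of the median of all.

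Side by side, the 143B probe sets of these genes lay mostly on the higher side. In rho0 cells 12 of the 24 were above rho+ in every culture and 1 was below, whereas 14.5% of all tested probe sets were apart and higher and 18.5% apart and lower. Several of the 24 read the same gene, so they are not independent. Of the 10 brightest probe sets, 6 were apart and higher and 0 apart and lower. At an unadjusted p of at most 0.05, 11 of the 24 differed, beside 27.4% of all. The scaling of the arrays bears on these values. Rho0 arrays had a median signal of 74.3 to 82.8, against 88.3 to 110.5 in rho+. With each array set to 1 median, the median log2 fold change of all probe sets moved to 0.26, against -0.05 as deposited, 9 of the 24 members were called, all higher, and the calls over all tested probe sets became 1705 higher and 768 lower instead of 511 and 1232. The lower ACTB ratio in rho0 cells ran with the same comparison, and its part was not tested.

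In HEK293 cells the 95% intervals, unadjusted for the number of tests, bound what could have been missed only for their own probe set and comparison. The dim HSPD1 probe set called at day 9 of DN-POLG cells, not the brightest of its gene, had an interval of 0.85 to 3.26. At day 9 of DN-POLG cells, the upper ends of the 95% intervals of the 10 brightest probe sets reached 1.22 on the log2 scale for LONP1 and no more than 0.73 for the other 9 genes. In AOX/NDI1 cells at day 9, 8 of 21 member probe sets lay above day 0 in every culture and 2 below, beside 23.2% of all tested probe sets apart and higher and 28.6% apart and lower. The cultures of AOX/NDI1 cells were also the most alike. Over the 10 brightest probe sets, the SD among their 3 cultures had a median of 0.06 (log2) on either day. In DN-POLG cells this median was 0.19 for day 9 and 0.31 for day 0. AOX/NDI1 against DN-POLG cells gave 0 called members of 21 at day 0 (background 0.00432%) and 0 at day 9 (background 0.00432%), and the difference of their day 9 responses gave 0 (background 0%). At an unadjusted p of at most 0.05 these counts were 1, 0 and 0, beside 4.86%, 4.01% and 3.39% of all tested probe sets. At day 0, 2 member probe sets were apart and higher (background 8.24%) and 1 lower (6.1%), and at day 9, 2 were higher (5.68%) and 2 lower (6.6%). CLPX on 223507_at carried the smallest p of the members in these 3 comparisons. At day 0 it read 1041, 1089.9 and 1098 in AOX/NDI1 cells, against 878, 645 and 673 in DN-POLG cells, without overlap (0.57, SE 0.16, adjusted p = 0.906). HSPD1 lay below DN-POLG cells in every AOX/NDI1 culture at day 0 (-0.30, adjusted p = 0.906), and at day 9 HSPE1 (-0.20) and TRAP1 (-0.18) lay below and both CLPX probe sets above DN-POLG cells, with adjusted p-values of 1.00 after rounding. The DN-POLG comparisons share the day 0 cultures, and the difference of responses shares cultures with both models.

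Some probe sets of a gene differed in sign from its brightest one, and none of these values passed. At day 3 of DN-POLG cells they were HSPA9 200690_at (0.18), DNAJA3 205963_s_at (0.06) and YME1L1 201352_at (0.13), whose brightest probe sets gave -0.10, -0.03 and -0.04. At day 6 they were HSPD1 241716_at (0.69) and 243372_at (0.08) and DNAJA3 205963_s_at (0.06), and at day 9 DNAJA3 205963_s_at (0.0048) and YME1L1 201352_at (-0.04). For AOX/NDI1 against DN-POLG cells at day 0 they were HSPD1 241716_at (0.49) and 243372_at (0.05), DNAJA3 205963_s_at (0.01) and YME1L1 232216_at (-0.03). At day 9 they were HSPA9 200690_at (0.07) and 200692_s_at (0.20), YME1L1 201352_at (-0.01) and 232216_at (-0.08), and AFG3L2 202486_at (-0.03). In the difference of responses, 7 probe sets of HSPD1, HSPA9, DNAJA3, CLPX and YME1L1 did so, from -0.81 for HSPD1 241716_at to 0.11 for HSPA9 200692_s_at. The array thus gives these genes no single direction in those comparisons.

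The HEK293 arrays also show how the members varied together. Over the 18 arrays, which share groups and cultures, Pearson's r between brightest probe sets was 0.91 for TRAP1 with CLPP, 0.78 for HSPD1 with TRAP1 and 0.75 for LONP1 with CLPP, and HSPE1 with HSPA9 had 0.71. At the other end were HSPD1 with AFG3L2 (-0.55) and HSPE1 with TRAP1 (-0.51). The genes of the 12094 compared whose log2 signal followed the mean of the 10 most closely were APEH (r = 0.96), ANP32B (0.94), MRPL43 (0.92), WARS1 (0.92) and CHMP2A (0.92), as a description over the same 18 arrays.

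The levels also differed between the cell lines. Set beside DN-POLG cells at day 0, rho+ 143B cultures were lower in every culture for 8 of the 10 genes, beside 33.7% of all probe sets compared lower and 36.1% higher in this way. The signal at day 0 of DN-POLG cells was 8.75-fold that of rho+ cells for CLPP, 7.18-fold for TRAP1, 7.07-fold for LONP1, 3.45-fold for DNAJA3, 2.60-fold for HSPA9, 2.42-fold for HSPD1, 2.31-fold for YME1L1 and 1.32-fold for CLPX. HSPE1, with geometric means of 10099 in rho+ and 7683 in DN-POLG cells, and AFG3L2, with 4016 and 5813, overlapped between the lines. The ACTB ratios of the lines differ as given above, and the line and the RNA quality cannot be told apart here, so these folds are a description with no test.

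Genes around the 10 were taken from lists by function, and values in brackets are log2 fold changes from limma. As a background for these counts of genes, 11.4% of the 11433 genes tested in 143B cells were called (3.68% higher, 7.75% lower), and in HEK293 cells 13.1% of 12104 at day 9 of DN-POLG (4.04% higher, 9.66% lower) and 18.1% in AOX/NDI1 cells (4.28% higher, 14.4% lower). A list made for the chaperonin and Hsp70 system held 12 genes, among them CLPB, DNAJC5 and DNAJC11, whose part in that system was not checked. Of its 10 genes tested in 143B cells, 2 were higher in rho0: PAM16, which holds the J-protein at the import motor (1.32), and DNAJC15, a related J-protein (1.21). Among 21 import genes, 7 were higher and 0 lower, with the pore TOMM40 at 2.04 and the small intermembrane space chaperones TIMM8A at 1.57 and TIMM10 at 1.57. PHB1, of the prohibitin scaffold that AFG3L2 proteases sit in, was the 1 gene called of 16 other proteases and scaffold genes (1.43). The median log2 fold change of the brightest probe sets was 0.60 for the chaperonin and Hsp70 list, 0.62 for import and 0.25 for the other proteases, beside -0.05 over all. The cytosolic chaperones HSPH1 (1.54 to 2.23 on 3 probe sets) and STIP1 (0.91 and 1.06 on 2) were also higher, 2 of 19. So were 2 of 12 mitochondrial reference genes, the respiratory subunit CYC1 (1.30) and the TCA cycle enzyme MDH2 (1.37). The MDH2 call came from 213333_at alone, with a mean of 491 in rho0 and 198 in rho+ cells. Of 17 response regulators limma called 0, and 5 differed at an unadjusted p of at most 0.05, beside 37.3% of all genes.

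**Figure D4:**
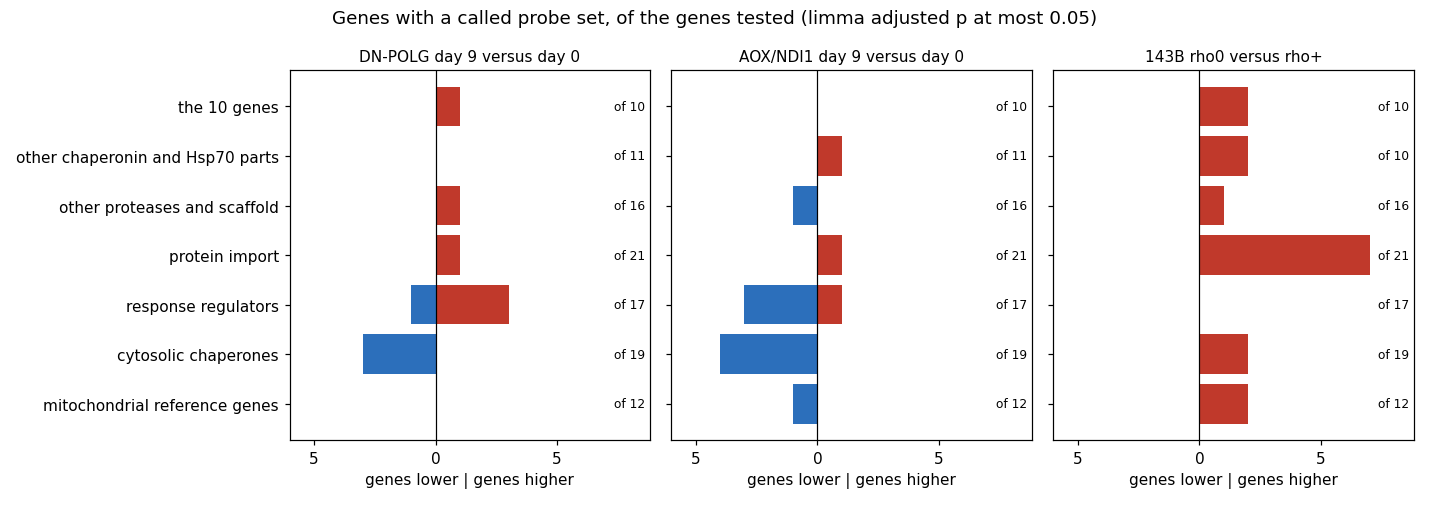
Number of genes with a called probe set (limma adjusted p at most 0.05), higher to the right and lower to the left of 0, for the 10 genes and 6 lists of related genes in DN-POLG day 9 over day 0, AOX/NDI1 day 9 over day 0, and 143B rho0 over rho+. The number of genes tested stands at the right of each bar, and protein import in rho0 cells has the longest bar, 7 of 21.

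Of the regulators, more genes were called in HEK293 cells, whose model held 18 arrays against 6 for 143B cells, so these counts are not alike in power. At day 9 of DN-POLG cells 3 of 17 regulators were higher and 1 lower. At an unadjusted p of at most 0.05 (limma), 4 of 17 differed there, beside 30.2% of all genes. In AOX/NDI1 cells at day 9 this count was 9, beside 37.2%, and in rho0 cells it was 5, as given above. DDIT3, which encodes CHOP, had a mean signal of 2650.2 at day 9, against 1277 at day 0 (1.14). EIF2AK4, the amino acid sensing kinase GCN2, was higher by 2.61 on 1 probe set. DELE1, a relay of mitochondrial stress, was higher by 0.91, close to the threshold (limma adjusted p = 0.0494), while NRF1 was lower (-1.08). In AOX/NDI1 cells at day 9, 1 regulator was higher (EIF2AK4, 1.90) and 3 were lower: JUN (-1.49 on 201466_s_at), CEBPB (-0.71) and NRF1 (-0.96). The limma test of the difference between the models' day 9 responses called 0 of all 23132 probe sets (3.39% at an unadjusted p of at most 0.05), these regulators included. The import receptor TOMM20 was the 1 of 21 import genes called in each model, 1.01 in DN-POLG and 0.80 in AOX/NDI1 cells. LACTB was the 1 of 16 other proteases higher in DN-POLG cells (1.24), and the pseudogene AFG3L1P the 1 lower in AOX/NDI1 cells (-1.05). Of 19 cytosolic chaperones 3 were lower in DN-POLG cells and 4 in AOX/NDI1 cells, with the stress-inducible DNAJB1 at -1.13 in DN-POLG cells and -1.77 in AOX/NDI1 cells. The others in both were DNAJB4, a further J-protein (-1.16 in DN-POLG and -0.95 in AOX/NDI1 cells), and HSPA4, a partner of Hsp70 (-1.02 in DN-POLG and -1.05 in AOX/NDI1 cells), and DNAJA2 was lower in AOX/NDI1 cells alone by this threshold (-0.58), a difference between the models that did not pass. Of the 11 genes of the chaperonin and Hsp70 list limma called 0 in DN-POLG cells, with 3 at an unadjusted p of at most 0.05 beside 30.2% of all genes, and PAM16 was higher in AOX/NDI1 cells (0.85). Of 12 mitochondrial reference genes 0 were called in DN-POLG cells, with 1 at the unadjusted threshold. VDAC3, a pore of the outer membrane, was lower in AOX/NDI1 cells on 208844_at alone (-2.03), with a mean of 179 at day 9 and 671 at day 0.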

How the data were processed

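Total RNA of 24 cultures, 3 for each of 8 groups, was hybridised to Affymetrix Human Genome U133 Plus arrays. Per the labels, the authors made the intensity values with MAS5 in Affymetrix Expression Console. The deposited intensities are linear MAS5 signals, 1 per probe set and array, whose mean without the highest and lowest 2% was 500.1 on every array. No scanner files were used here, and no detection call was read, so that a dim value is not shown to be above background. The number of arrays limits the precision.

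Signals were put on the log2 scale with nothing added. The 10 genes, and the lists of related genes, were chosen with earlier results of these data known. Gene symbols came from the platform annotation: 41091 probe sets had 1 symbol, 1801 several and 11777 none, and 41037 of the first matched RefSeq. Control probe sets were left out. Within a cell line, probe sets with 1 symbol and a mean log2 signal at or above the median (57.2 signal units for HEK293, 83.3 for 143B) were tested, 23132 and 22786 of them. limma 3.58.1 in R 4.3.3 was fitted to group means (lmFit, contrasts, eBayes) over the 18 HEK293 and the 6 143B arrays apart, with Benjamini-Hochberg adjustment over every tested probe set. Calls required an adjusted p of at most 0.05, and all tests were two-sided. The script was tested on simulated data. Groups were called apart where every array of one lay above every array of the other.

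All 10 genes were named. A gene's values came from its probe set with the highest mean log2 signal over the 24 arrays, and others are named where their call or direction differed. Of each list the 4 genes with the smallest p in any comparison among those called were named, and other genes named from a list (DELE1, CEBPB, STIP1, DNAJA2) were chosen after their values were seen. The methods describe the 3 cultures of a group as independent, with the days of a culture round grown from 1 starter culture. Replicate numbers were shared by the groups. Deviations of arrays with the same number correlated at 0.32 to 0.51 between days 3 and 0 of DN-POLG cells. Between days 6 and 0 they correlated at 0.17 to 0.21, and in the other comparisons at -0.32 to 0.07. The numbers thus ran with a pairing of cultures at days 3 and 6. The main model held no term for this pairing, so its p-values are unpaired, and the replicate number as a block was an alternative. Alternatives were another scaling, filter, offset, block, array weights, the ANOVA that the methods name, other ways to combine probe sets, and leaving out each array.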

Additional observations from a re-analysis of the deposited data

How the results depend on the processing

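Counts of called member probe sets are compared here by limma unless named. At day 9 of DN-POLG cells the 1 call became 0 with no signal filter, a filter at the 75th percentile, the methods' ANOVA, only the arrays compared, or the brightest probe set of each gene alone (an alternative chosen after seeing the data), 2 with array weights, and 0 to 1 without single arrays. With probe sets of a gene averaged, HSPD1 passed at day 9 of DN-POLG cells (0.69, adjusted p = 0.0454), an average that holds the dim 241716_at. For any day of DN-POLG cells the 1 call became 0 with no filter, the 75th percentile, only the arrays compared or the brightest probe sets, 3 with array weights, and 0 to 1 without single arrays. In AOX/NDI1 cells at day 9 the 0 calls became 4 with array weights (3 higher, 1 lower), 1 with only the arrays compared and 1 without DN-POLG day 6 replicate 1, and ranged from 0 to 1 without single arrays, and against DN-POLG cells at day 0 array weights gave 1. In 143B cells the 2 calls became 9 with arrays set to 1 median, 0 with no filter, 5 of 16 at the 75th percentile, 6 with an offset of 32, 12 with array weights (10 higher, 2 lower), 0 with the methods' ANOVA, 1 of 10 with probe sets of a gene averaged (AFG3L2, 0.96, adjusted p = 0.0359), 0 with the brightest probe sets, and 0 to 9 without single arrays, 9 (8 higher, 1 lower) being without rho0 replicate 3. With the replicate number as a block, which the check of pairing did not bear out for 143B cells, the 143B count was 0, and in the other comparisons the block changed no count of member calls. Over all tested probe sets the block gave 43 calls at day 6 and 1506 at day 9 of DN-POLG cells. It gave 2293 in AOX/NDI1 cells at day 9 and 725 in 143B cells. Of the values of single fold changes under the alternatives, 1421 kept their side of the threshold, 21 came to pass and 24 no longer passed. No fold change that passed changed sign, but 50 of 83 did so under at least 1 alternative, all of them at most 0.30 in size on the log2 scale and with an adjusted p of at least 0.334, so these have no settled direction. The causes were not tested. The counts over all tested probe sets ranged, for the 318 calls at day 6, from 1 with only the arrays compared to 984 with array weights (51 to 917 without single arrays), for the 1939 at day 9 from 328 to 5687 under the same settings (1020 to 2791), for the 2086 at any day from 799 to 7255 (1235 to 2794), for the 2728 in AOX/NDI1 cells from 1423 at the 75th percentile to 9691 with array weights (1368 to 3994), and for the 1743 in 143B cells from 93 with the methods' ANOVA to 8307 with array weights (241 to 5877). With array weights, day 3 gave 200, AOX/NDI1 against DN-POLG cells 1030 at day 0 and 119 at day 9, and the difference of responses 34. How far dim probe sets near the filter lie above the background of the arrays was not measured here.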
